A study of Mus musculus with 12 samples.

Results

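Heat shock proteins are chaperones that bind unfolded or partly folded proteins and help them fold, refold or reach the protease. The members described here were the genes of the heat shock response itself: the stress-inducible cytosolic chaperones Hspa1a, Hspa1b, Hsph1, Dnajb1 and Hsp90aa1, the constitutively made cytosolic chaperones Hspa8 and Hsp90ab1, the mitochondrial chaperonin pair Hspd1 and Hspe1, and Hsf1, the transcription factor that switches the response on. Every probe set that the array's annotation pairs with one of these 10 genes was taken. That gave 20 probe sets of 45101 on the array, for 8 of the 10 genes, and all 20 passed the filter on low values. The annotation used here pairs no probe set with Hsp90ab1 or Hsf1, which were not analysed here.

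The study asked how loss of the transcription factors FoxO1, FoxO3 and FoxO4 affects gene expression in mouse bone marrow, with reactive oxygen metabolism as its stated interest. RNA of sorted cells was amplified in triplicate and hybridised to Affymetrix Mouse Genome 430 2.0 arrays, which gave 4 groups of 3 arrays: FoxO-deficient myeloid progenitors, wild-type myeloid progenitors, FoxO-deficient LSK cells and wild-type LSK cells. LSK cells are the lineage-negative, Sca-1-positive, Kit-positive fraction that holds the haematopoietic stem cells, and the labels also call them stem cells. FoxO-deficient mice were Mx-Cre+; FoxO1/O3/O4 LoxP/LoxP and wild-type mice Mx-Cre-; FoxO1/O3/O4 LoxP/LoxP, so all groups carried the floxed alleles and the Cre transgene was present in the deficient groups alone. The Mx promoter answers to interferon and is not limited to blood cells. Mice were pooled before sorting, and no label states whether triplicates were separate sorts, so p-values measure the spread between arrays, which may be technical. The labels give no age, sex or strain.

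Under stress, unfolded proteins draw chaperones away from HSF1, which then forms trimers and binds arrays of the letters GAA and TTC in the promoters of its targets. The inducible HSP70 genes can be driven to very high RNA levels within minutes, whereas Hspa8 is made at a high and steady level in most cells. In blood-forming cells as elsewhere, the response is known to react to heat, oxidants and the load of newly made protein.

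Values are normalized intensities, which are brightness on the array after quantile normalization, and each gene was represented by its brightest probe set. Log2 changes come with their standard errors, and a gene was called where the Benjamini-Hochberg adjusted p of limma over all 13732 genes was under 0.05. A level was set against the same probe set on other arrays and never against another probe set. In these sorted bulk samples, fewer cells that express a gene and less RNA per cell cannot be told apart.

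Wild-type LSK array 2 stood apart from the other 11 arrays. Its ratio of 3′ to 5′ signal was 247.4 for Gapdh and 131 for Actb, against 1.83 to 2.37 and 2.81 to 3.41 on the others, a measure of how far the labelled RNA reached towards the 5′ end. Of the 20 heat shock probe sets, 5 differed between this array and the mean of wild-type LSK arrays 1 and 3 by more than 0.86 on the log2 scale, the median size of that difference over all 31779 kept probe sets. Values without it stand beside the results on the wild-type LSK group where a member or named chaperone was called in either fit. They also stand where Hspa1a or Hspa1b is described. The targeted gene Foxo4 was 59.9 in FoxO-deficient and 329.8 in wild-type myeloid progenitors (log2 change -2.46 ± 0.19, limma adjusted p = 1.14e-04). Foxo3 was 2414 and 1860 in the same groups (adjusted p = 0.30) and Foxo1 was 12.5 and 23.4 (adjusted p = 0.61). Whether those probe sets lie in the deleted part is not known from the files.

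The promoters of the 5 genes below are shown because they hold, or in the case of Dnajb1 do not hold, the paired GAA and TTC letters that HSF1 is known to bind. The 250 bases before each RefSeq start site (build GRCm38.p6) are written 5′ to 3′ on the gene's strand, and capitals mark each match to GAANNTTC or TTCNNGAA.
Hspa1a, chr17:34972157-34972406, minus strand: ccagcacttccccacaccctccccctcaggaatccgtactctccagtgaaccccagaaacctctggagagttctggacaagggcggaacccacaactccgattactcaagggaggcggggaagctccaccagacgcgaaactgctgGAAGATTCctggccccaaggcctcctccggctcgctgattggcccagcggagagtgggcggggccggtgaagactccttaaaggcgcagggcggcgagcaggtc
Hspa1b, chr17:34959239-34959488, minus strand: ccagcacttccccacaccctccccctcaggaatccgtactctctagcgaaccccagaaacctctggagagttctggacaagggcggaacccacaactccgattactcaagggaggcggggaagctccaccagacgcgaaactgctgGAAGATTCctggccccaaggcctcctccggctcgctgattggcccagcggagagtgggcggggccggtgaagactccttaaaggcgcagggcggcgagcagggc
Hsph1, chr5:149636337-149636586, minus strand: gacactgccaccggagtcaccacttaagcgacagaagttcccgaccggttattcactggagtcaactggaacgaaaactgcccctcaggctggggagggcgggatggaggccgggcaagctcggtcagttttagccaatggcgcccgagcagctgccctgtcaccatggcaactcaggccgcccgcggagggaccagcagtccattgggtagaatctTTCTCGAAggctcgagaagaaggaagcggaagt
Dnajb1, chr8:83607925-83608174, plus strand: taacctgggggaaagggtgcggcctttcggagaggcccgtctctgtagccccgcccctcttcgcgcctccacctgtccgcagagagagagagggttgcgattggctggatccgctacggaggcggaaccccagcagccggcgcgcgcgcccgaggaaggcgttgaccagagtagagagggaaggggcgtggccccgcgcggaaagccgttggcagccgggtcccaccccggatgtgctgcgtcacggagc
Hspe1, chr1:55087898-55088147, plus strand: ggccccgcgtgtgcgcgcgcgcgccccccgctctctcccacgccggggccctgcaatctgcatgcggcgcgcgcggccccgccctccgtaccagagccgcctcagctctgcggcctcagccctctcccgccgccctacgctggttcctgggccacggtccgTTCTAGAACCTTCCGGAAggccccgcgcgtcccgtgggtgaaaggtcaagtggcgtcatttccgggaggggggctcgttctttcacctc

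Both motifs read the same on the other strand, and matches may overlap. At least 1 of them was found in 12.8% of 32817 mouse promoter windows of this length, GAANNTTC in 6.69% and TTCNNGAA in 7.16%. RefSeq windows were at hand for 6 of the 10 members, and 5 of these 6 genes held a match: Hspa1a, Hspa1b, Hsph1, Hspd1 and Hspe1. The Hspa1a and Hspa1b windows were alike at 247 of 250 positions (98.8%), and each held GAAGATTC starting 104 bases before the start site. The Hspe1 window shares 215 bases with the window of a second Hspd1 start site on the opposite strand, so that the run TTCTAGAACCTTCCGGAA, made of 3 overlapping matches, stands 89 bases before the Hspe1 start. That run also holds 2 matches to the triplet GAANNTTCNNGAA or its reverse TTCNNGAANNTTC, which overlaps the pairs and was found in 0.47% of all windows. Neither of the 2 Dnajb1 windows held a pair. The FoxO letters GTAAACA or TGTTTAC, found in 3.16% of all windows, were in none of the 9 member windows. A match describes the letters in this stretch and nothing about binding.

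In myeloid progenitors, the inducible HSP70 genes and their HSP40 partner were far lower without FoxO, while no change was called in the constitutive HSP70 Hspa8, in Hsp90aa1, in Hsph1 or in the mitochondrial pair. Of the 8 heat shock genes, 0 rose and 3 fell (Hspa1a, Hspa1b and Dnajb1), where 1.84% of all genes were called and 1.09% were called lower. All 5 inducible genes had a log2 change below 0, with a median of -1.07, but Hsph1 and Hsp90aa1 were at -0.12 and -0.09. The sign was not particular to them, since Hspa8, Hspd1 and Hspe1 were at -0.04, -0.28 and -0.07. The share of all genes below 0 was not counted. The median over the 8 genes was -0.20, against 0.04 over all genes. Of the 20 probe sets, 0 rose and 6 fell, where 1.46% of all kept probe sets were called.

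Hspa1b encodes one of the nearly identical stress-inducible HSP70 proteins, the main refolding chaperone of the heat shock response. Its brightest probe set, 1452318_a_at, read 338, 328 and 349 in FoxO-deficient myeloid progenitors, against 2326, 2409 and 2576 in wild-type myeloid progenitors. It read 1503, 1285 and 1334 in FoxO-deficient LSK cells, against 1668, 2284 and 1695 in wild-type LSK cells. The FoxO-deficient myeloid progenitors were thus the lowest 3 of the 12 arrays and wild-type myeloid progenitors the highest 3. Hspa1b fell by 2.85 ± 0.16 on the log2 scale in myeloid progenitors, 7.20-fold lower, with an adjusted p of 1.03e-05 from limma. The spread between arrays within a group was 0.15 (SD, log2).

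The other 2 Hspa1b probe sets gave the same order in myeloid progenitors. Probe set 1427127_x_at read 26.8, 15.7 and 13.1 in FoxO-deficient myeloid progenitors, against 233.9, 169.8 and 198.7 in wild-type myeloid progenitors, and fell by 3.50 ± 0.36 (limma adjusted p = 9.73e-04 over all kept probe sets). Probe set 1427126_at read 10.6, 7.27 and 3.46 in FoxO-deficient myeloid progenitors, against 108.3, 112.6 and 130.8 in wild-type myeloid progenitors (adjusted p = 4.89e-04). On that probe set 1 of the 3 FoxO-deficient arrays was above the level of the array's background controls, so no fold is given for it.

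Hspa1a, the neighbouring copy of the same gene, is represented by 1 probe set, 1452388_at. It read 17.7, 2.36 and 7.29 in FoxO-deficient myeloid progenitors, against 105.5, 91.3 and 101.8 in wild-type myeloid progenitors. All FoxO-deficient arrays lay below all wild-type arrays, and 1 of the 3 FoxO-deficient arrays was above background, so no fold is given. The gene was called lower (limma adjusted p = 0.0347), with an adjusted p between 0.0045 and 0.114 over 21 alternatives. The call was lost in 10 of these: with no filter (0.0536), with only the myeloid progenitor arrays fitted (0.0549), without any one of FoxO-deficient LSK arrays 4, 5 and 6 (0.0628 to 0.0644) or wild-type myeloid progenitor arrays 7, 8 and 9 (0.101 to 0.114), and without FoxO-deficient myeloid progenitor array 11 (0.0995) or 12 (0.107). Without wild-type LSK array 2 it was 0.00692. Because the 2 copies are so alike, signal of Hspa1a and Hspa1b may be shared between their probe sets.

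Dnajb1 encodes the HSP40 protein that delivers clients to HSP70 and sets off its ATPase. Probe set 1416755_at read 954.5, 887.5 and 891.3 in FoxO-deficient myeloid progenitors, against 1933, 1947 and 1864 in wild-type myeloid progenitors. It read 2055, 1973 and 1773 in FoxO-deficient LSK cells, against 2059, 2295 and 2345 in wild-type LSK cells. The FoxO-deficient myeloid progenitors were the only group near 900, and the 9 other arrays lay at 1773 or above. Dnajb1 fell by 1.07 ± 0.13 in myeloid progenitors, 2.10-fold lower (limma adjusted p = 0.0030).

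The second Dnajb1 probe set, 1416756_at, showed a larger change. It read 83.4, 89.5 and 75.3 in FoxO-deficient myeloid progenitors, against 424.1, 369.1 and 349.8 in wild-type myeloid progenitors, and fell by 2.20 ± 0.18 (limma adjusted p = 2.65e-04, 4.60-fold lower). In LSK cells it read 411.6, 517.2 and 424.8 without FoxO, against 450.9, 379.1 and 470.6 in wild type, and these groups overlapped. The 2 probe sets thus had the same direction in myeloid progenitors and changes of different size.

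**Figure D1:**
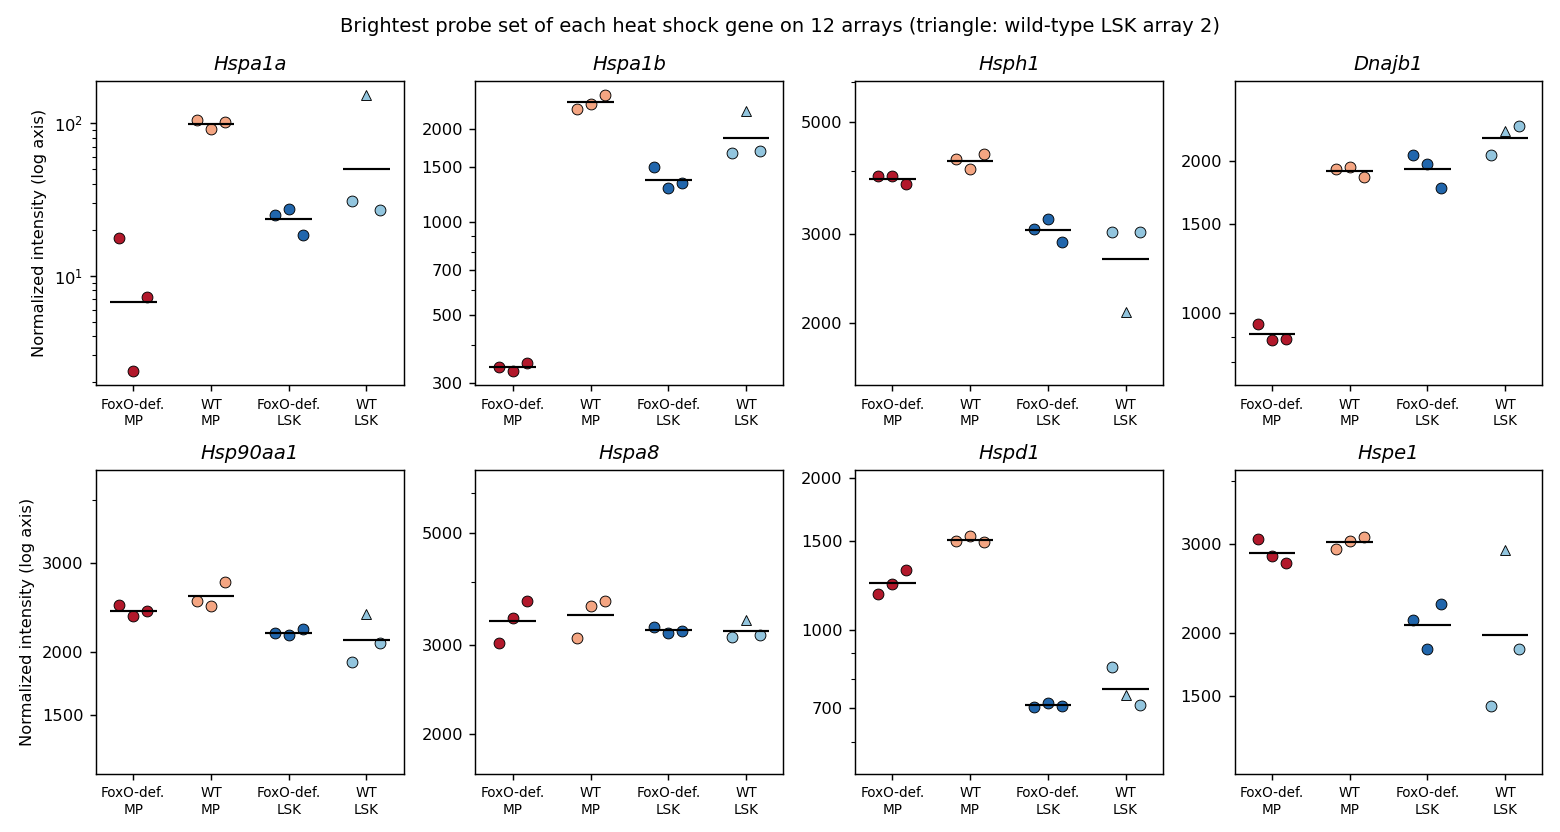
Normalized intensity (log axis) of the brightest probe set of each of 8 heat shock genes on 12 arrays, with FoxO-deficient beside wild-type groups for myeloid progenitors (MP) and LSK cells, points for arrays, bars for the geometric mean and a triangle for wild-type LSK array 2. Hspa1a, Hspa1b and Dnajb1 are low in FoxO-deficient myeloid progenitors, whereas Hspa8 lies between 3030 and 3676 on all arrays.

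The other 2 inducible genes were not called. Hsph1 encodes HSP110, which exchanges the nucleotide of HSP70 and holds unfolded clients. Its brightest probe set, 1425993_a_at, read 3920, 3907 and 3777 in FoxO-deficient myeloid progenitors, against 4224, 4042 and 4334 in wild-type myeloid progenitors. The groups did not overlap, but the log2 change of -0.12 ± 0.17 was not called (limma adjusted p = 0.88). The second probe set, 1423566_a_at, read 330.4, 388.5 and 375.9 against 574.5, 528.6 and 445.0 in wild type and was not called either (-0.50 ± 0.43, adjusted p = 0.77).

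Hsp90aa1 encodes the inducible form of HSP90, which matures kinases and steroid receptors. Its brightest probe set, 1438902_a_at, read 2477, 2349 and 2409 in FoxO-deficient myeloid progenitors, against 2512, 2465 and 2752 in wild-type myeloid progenitors. The groups overlapped, and the log2 change was -0.09 ± 0.14 (limma adjusted p = 0.89). None of its 5 probe sets was called, and 4 of the 5 had a log2 change below 0. The fifth, 1433251_at, was below the background limit on most arrays.

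Hspa8, the constitutive HSP70 that folds new chains and uncoats clathrin vesicles, was the steadiest member. Probe set 1420622_a_at read 3030, 3390 and 3676 in FoxO-deficient myeloid progenitors, against 3094, 3592 and 3676 in wild-type myeloid progenitors. It read 3265, 3166 and 3205 in FoxO-deficient LSK cells, against 3111, 3363 and 3141 in wild-type LSK cells. All 4 groups overlapped, and the SD over 12 arrays of 0.0988 on the log2 scale was smaller than that of all but 0.51% of genes. The log2 change was -0.04 ± 0.14 in myeloid progenitors and 0.00 ± 0.14 in LSK cells, neither called by limma (adjusted p = 0.97 and 0.99).

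The 3 other Hspa8 probe sets were not called. The dimmest of them, 1431182_at, read 69.2, 58.5 and 67.2 in FoxO-deficient myeloid progenitors, against 107.8, 92.8 and 102.0 in wild-type myeloid progenitors. These groups did not overlap, with a log2 change of -0.64 ± 0.20 and a limma adjusted p of 0.20, which was 0.0246 without wild-type LSK array 2.

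Hspd1 and Hspe1 encode HSP60 and HSP10, the barrel and lid of the mitochondrial folding chamber, and one Hspd1 start site shares the promoter shown above for Hspe1. Hspd1 (1426351_at) read 1176, 1234 and 1317 in FoxO-deficient myeloid progenitors, against 1497, 1534 and 1492 in wild-type myeloid progenitors. All FoxO-deficient arrays were lower, and the log2 change of -0.28 ± 0.13 was not called (limma adjusted p = 0.41). Hspe1 (1450668_s_at) read 3066, 2845 and 2757 in FoxO-deficient myeloid progenitors, against 2933, 3049 and 3094 in wild-type myeloid progenitors. These overlapped, with a log2 change of -0.07 ± 0.23 (adjusted p = 0.97).

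Counted by arrays alone, 5 of the 8 genes and 14 of the 20 probe sets had all FoxO-deficient below all wild-type myeloid progenitor arrays, where 12.6% of all genes and 13.3% of all probe sets did. Neither a gene nor a probe set of the members had them all above, where 18.2% of all genes and 15% of all probe sets did.

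In LSK cells, 0 of the 8 heat shock genes and 0 of the 20 probe sets were called in either direction, where 0.269% of all genes and 0.148% of all probe sets were. The lowest unadjusted p was that of Hspa1b, 0.0209, and it was the only one under 0.05 among genes and among probe sets. Its log2 change was -0.44 ± 0.16 (limma adjusted p = 0.35), and -0.30 ± 0.10 without wild-type LSK array 2 (adjusted p = 0.22). Hspa1a read 25.1, 27.3 and 18.6 in FoxO-deficient LSK cells, against 31.0, 153.1 and 26.8 in wild-type LSK cells. On array 2 Hspa1a was 5.31-fold above the mean of wild-type LSK arrays 1 and 3. Its log2 change was -1.11 ± 0.76 with all arrays and -0.30 ± 0.67 without array 2, neither called (adjusted p = 0.58 and 0.89). The median over the 8 genes was -0.05, against -0.04 over all genes. In 2 of the 8 genes (Hspa1b and Dnajb1) and 3 of the 20 probe sets all FoxO-deficient lay below all wild-type LSK arrays, where 9.06% of all genes and 7.57% of all probe sets did. No member lay wholly above, where 7.77% of all genes and 8.63% of all probe sets did.

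**Figure D2:**
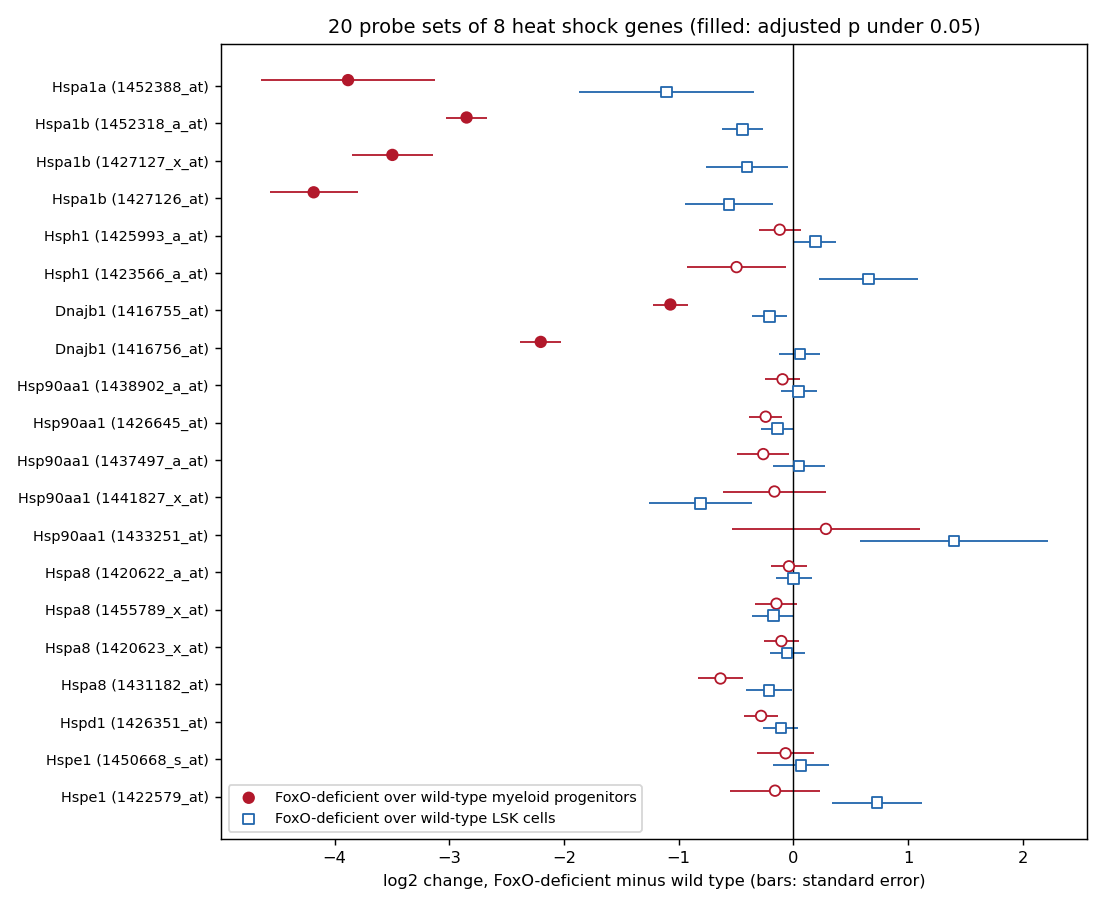
Log2 change, FoxO-deficient minus wild type, of 20 probe sets of 8 heat shock genes in myeloid progenitors (red) and LSK cells (blue), with bars for the standard error and filled points for an adjusted p under 0.05. The 6 filled points are all in myeloid progenitors and belong to Hspa1a, Hspa1b and Dnajb1, of which Hspa1a and 1427126_at have 1 of 3 FoxO-deficient arrays above background.

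The effect of FoxO loss was then compared between the cell types. For Hspa1b it was lower in myeloid progenitors than in LSK cells by 2.41 ± 0.23 on the log2 scale (limma adjusted p = 9.12e-04; the difference was -2.55 ± 0.14 and the adjusted p 5.47e-05 without wild-type LSK array 2), 1 of 8 genes called where 0.859% of all genes were called and 0.568% called lower. All 3 Hspa1b probe sets were called in this test, with adjusted p of 0.0028, 0.0272 and 0.0178, and of 1.64e-04, 0.0247 and 0.0179 without array 2. For Dnajb1 the brightest probe set had a difference of -0.86 ± 0.19 that was not called (adjusted p = 0.0820) and was called without wild-type LSK array 2 (adjusted p = 0.0157). The second Dnajb1 probe set had a difference of -2.26 ± 0.25 (adjusted p = 0.00406), and of -2.16 ± 0.20 without array 2 (adjusted p = 0.0017). For Hspa1a, with 1 of 3 FoxO-deficient myeloid progenitor arrays above background, no size is given, and the difference was not called with all arrays (adjusted p = 0.38) or without array 2 (0.0768). In all, 4 of the 20 probe sets were called, where 0.588% of all kept probe sets were, and 5 without array 2, where 2.08% were. Leaving out array 2 gave 2 of 8 genes called, where 3.13% of all genes were. The 5 other genes had differences between -0.31 and -0.04, none called.

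The cell types were also compared within each genotype. Among wild-type cells, 2 of the 8 genes (Hsph1 and Hspd1) were called higher in myeloid progenitors than in LSK cells and 0 lower, where 21.4% of all genes were called and 9.95% were called higher. Hspd1 read 1497, 1534 and 1492 in wild-type myeloid progenitors, against 846, 745 and 711 in wild-type LSK cells, 1.97-fold higher (log2 difference 0.98 ± 0.13, limma adjusted p = 7.08e-04). It was 0.96 ± 0.10 without wild-type LSK array 2 (adjusted p = 2.42e-04). Hsph1 had a log2 difference of 0.65 ± 0.17 (adjusted p = 0.0220), and of 0.47 ± 0.09 without wild-type LSK array 2 (adjusted p = 0.0040). This call was lost without wild-type myeloid progenitor array 7, 8 or 9 (adjusted p = 0.0650, 0.0549 and 0.0724) and when only the wild-type arrays were fitted (0.178). Without wild-type LSK array 2, 5 of the 8 genes were called higher, where 34% of all genes were called and 17.9% higher. Hspa1b then had a log2 difference of 0.53 ± 0.10 (adjusted p = 0.0043), against 0.39 ± 0.16 and an adjusted p of 0.12 with it. Hspe1 had one of 0.89 ± 0.14 (adjusted p = 0.00162), against 0.61 ± 0.23 and 0.0966. Hsp90aa1 had one of 0.37 ± 0.09 (adjusted p = 0.0152), against 0.29 ± 0.14 and 0.17. With all arrays 6 of the 20 probe sets were higher and 0 lower, where 14.5% of all kept probe sets were called. By arrays alone, 5 genes lay wholly above and 1 (Dnajb1) wholly below, where 18.2% and 17.6% of all genes did, and 12 probe sets above and 1 below, where 16.7% and 14.4% of all probe sets did.

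The 2 Hspe1 probe sets moved in opposite directions on array 2. That array was 0.84 above the mean of arrays 1 and 3 on 1450668_s_at and 1.70 below it on 1422579_at (log2), which read 572, 182 and 609 on wild-type LSK arrays 1, 2 and 3.

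Among FoxO-deficient cells, Hspd1 was again higher in myeloid progenitors than in LSK cells, while the inducible HSP70 and its HSP40 partner were lower. Hspd1 read 1176, 1234 and 1317 in FoxO-deficient myeloid progenitors, against 702.9, 717.5 and 707.9 in FoxO-deficient LSK cells, 1.75-fold higher (log2 difference 0.81 ± 0.13, limma adjusted p = 0.00215). Hspa1b was 4.06-fold lower in the myeloid progenitors (-2.02 ± 0.16, adjusted p = 2.58e-05). Dnajb1 was 2.12-fold lower (-1.08 ± 0.13, adjusted p = 3.90e-04). That made 1 gene higher and 2 lower of 8, where 19.6% of all genes were called, 10.2% higher and 9.39% lower. Of the 20 probe sets, 2 were higher and 5 lower, where 14.6% of all kept probe sets were called. By arrays alone, 4 genes lay wholly above and 3 wholly below, where 30% and 22.4% of all genes did, and 9 probe sets above and 6 below, where 25.6% and 21.3% of all probe sets did. Array 2 enters only the shared spread here, and leaving it out gave 3 higher (Hsph1, Hspd1 and Hspe1) and 3 lower (Hspa1a, Hspa1b and Dnajb1), where 37.3% of all genes were called, 21.6% higher and 15.7% lower.

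**Figure D3:**
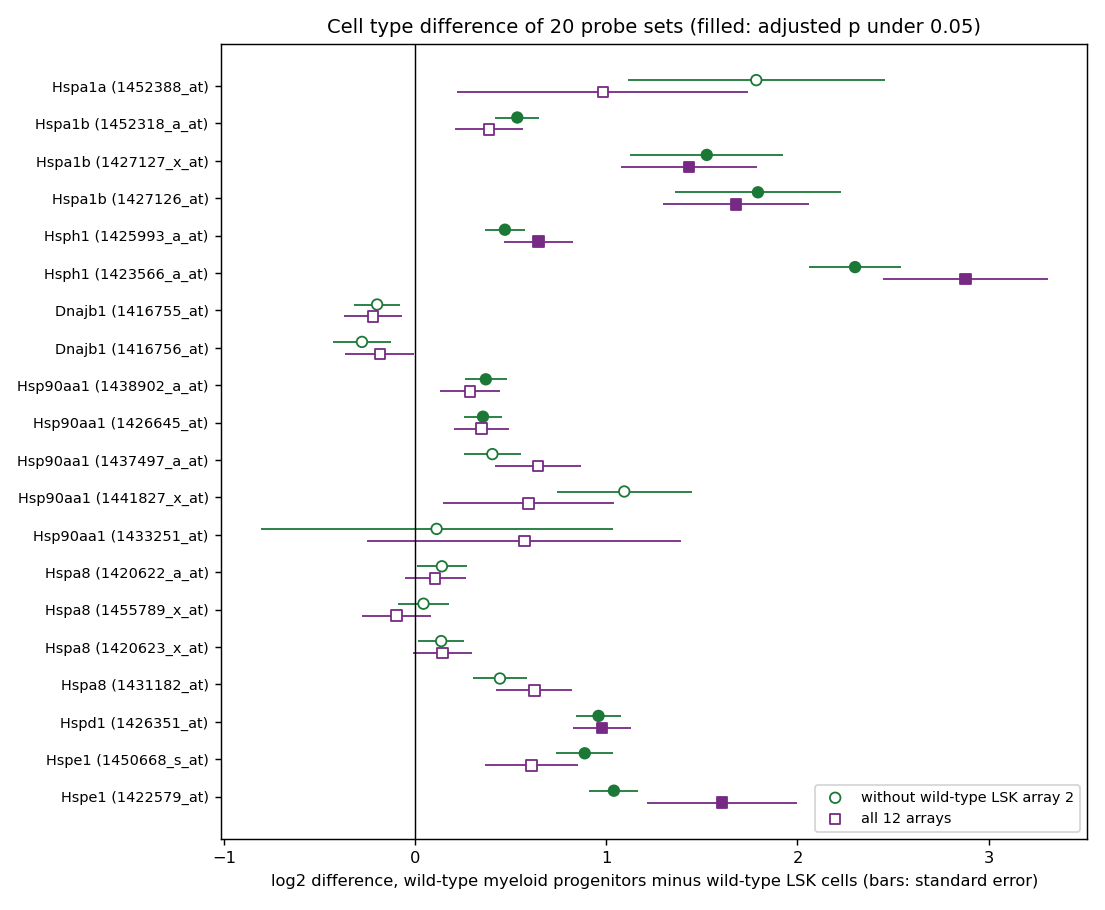
Log2 difference, wild-type myeloid progenitors minus wild-type LSK cells, of 20 heat shock probe sets, without wild-type LSK array 2 (green circles) and with all 12 arrays (purple squares), with bars for the standard error and filled points for an adjusted p under 0.05. Points of Hspd1 and Hsph1 lie to the right of 0 in both, and 10 probe sets are filled without array 2 (24.2% of all kept probe sets called), against 6 with it (14.5%).

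The change in myeloid progenitors was next set beside the rest of the chaperone system. Of 106 other chaperone genes in 9 lists, 98 were measured, and 0 rose and 4 fell in FoxO-deficient myeloid progenitors, with a median log2 change of 0.01. Among all genes, 0.757% rose and 1.09% fell in that comparison. In LSK cells limma called 0 of the 98 with or without array 2, where 0.269% and 0.903% of all genes were called. There 11 had an unadjusted p under 0.05, a limit for which no share of all genes was counted. Without array 2, 6 fell and 7 rose in myeloid progenitors, where 3.43% of all genes were called lower and 5.1% higher. The 6 held all 4 of these genes, Dnaja1 and Bag6. The 7 were Dnajb14, Cdc37l1, Fkbp5 and, from the endoplasmic reticulum list, Hyou1, Pdia3, Dnajc3 and Sdf2l1.

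The 4 that fell included 2 of 16 HSP40 co-chaperones. Dnajb4, a cytosolic HSP40 related to Dnajb1, read 140.8, 132.6 and 109.2 in FoxO-deficient myeloid progenitors, against 310.6, 346.0 and 357.6 in wild-type myeloid progenitors (log2 change -1.41 ± 0.18, limma adjusted p = 0.0031). Dnaja4, an HSP40 of the other main class, read 33.0, 19.5 and 20.1 against 69.4, 68.0 and 51.1 in wild type (-1.41 ± 0.27, adjusted p = 0.0301). Bag3, which joins HSP70 to autophagy and is known as an HSF1 target, read 20.3, 26.4 and 18.2 in FoxO-deficient myeloid progenitors, against 50.6, 43.9 and 39.3 in wild-type myeloid progenitors (-1.05 ± 0.22, adjusted p = 0.0458). It was 1 of 10 HSP70 cofactors. Dnajb9, an HSP40 of the endoplasmic reticulum, read 297.9, 268.6 and 281.5 against 424.4, 462.0 and 457.6 in wild type (-0.66 ± 0.14, adjusted p = 0.0415). It was 1 of 13 genes of its list, of which 2 had a log2 change below 0, with a list median of 0.35. In none of these 4 genes did the groups overlap. The difference between the FoxO effects called 1 of the 98 higher and 1 lower, where 0.291% and 0.568% of all genes were. Lower was Dnajb4 (-1.30 ± 0.25, limma adjusted p = 0.0496, and 0.0036 without array 2). Higher was Dnajb14 (1.42 ± 0.25, adjusted p = 0.0305, and 0.0086 without array 2). Its log2 change was 0.73 ± 0.17 in myeloid progenitors and -0.69 ± 0.17 in LSK cells, neither called with all arrays (adjusted p = 0.076 and 0.18). Without array 2, limma called that difference higher in 1 of the 98 and lower in 4, where 1.53% and 1.6% of all genes were. Beside Dnajb4, the lower genes were then Dnaja4 (-1.58 ± 0.33, adjusted p = 0.0440), Dnajb9 (-0.82 ± 0.14, 0.0192) and Hspa14 (-1.11 ± 0.24, 0.0465). With all arrays they were not called (0.19, 0.13 and 0.73).

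With all 12 arrays, the other lists held no called gene in this comparison. They held 8 heat shock factors and their regulators, 7 other cytosolic HSP70 and HSP110 proteins, 10 HSP90 co-chaperones and 7 genes of the small heat shock list. They also held 14 subunits of the TRiC chaperonin and prefoldin, and 13 mitochondrial chaperones and proteases. Hsf2, Hsf4, Hspa12a, Hspa12b, Hspb2, Hspb3, Hspb8, Cryab and Serpinh1 were above background on at most 1 array of each myeloid progenitor group. For these genes the lack of a call does not show an unchanged level. Hspa4, an HSP110 relative of Hsph1, read 1253, 1265 and 1223 in FoxO-deficient myeloid progenitors, against 1759, 1474 and 1495 in wild-type myeloid progenitors, and was not called (limma adjusted p = 0.31), although the groups did not overlap. Tcp1, a TRiC subunit, read 3011, 2590 and 2847 against 2815, 2966 and 2847 in wild type, and the groups overlapped. Cacybp, a calcyclin-binding protein of the HSP90 co-chaperone list, read 1552, 1530 and 1686 against 1561, 1596 and 1502 in wild type, and they overlapped as well. Hspa9, the mitochondrial HSP70, read 1137, 1222 and 1098 against 1294, 1170 and 1213 in wild type.

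**Figure D4:**
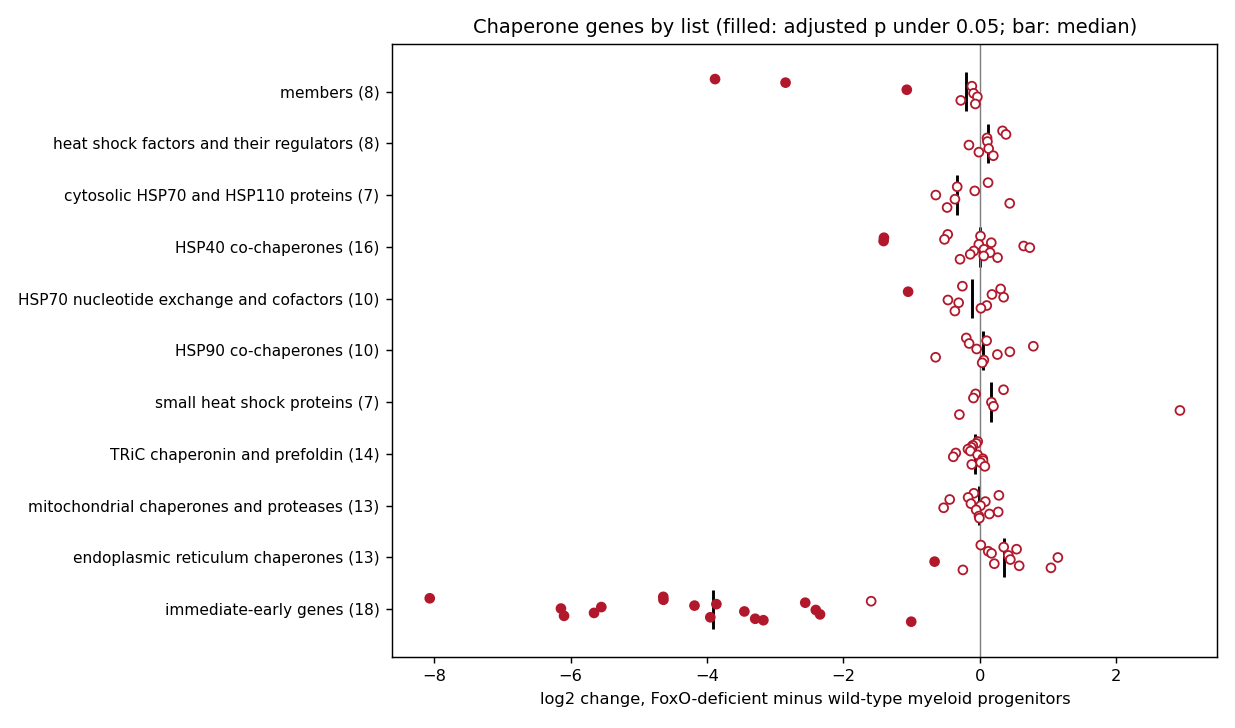
Log2 change, FoxO-deficient minus wild-type myeloid progenitors, of each measured gene in the heat shock members, 9 other chaperone lists and the immediate-early genes (number measured in brackets), with filled points for an adjusted p under 0.05 and black bars for the median. The filled members are Hspa1a, whose size rests on arrays near background, Hspa1b at -2.85 and Dnajb1 at -1.07, and 17 of 18 immediate-early genes are filled.

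Genes other than chaperones moved in the same arrays. Immediate-early genes are switched on within minutes by growth signals, stress or tissue handling. In FoxO-deficient myeloid progenitors all 18 measured had a log2 change below 0, with a median of -3.91. Of these, limma called 17 lower, where 1.09% of all genes were, and 18 without wild-type LSK array 2, where 3.43% were. Junb was not called with all arrays (-1.59 ± 0.40, limma adjusted p = 0.092). In LSK cells 0 of 18 were called, where 0.269% of all genes were. There 2 had an unadjusted p under 0.05, both higher, with no share of all genes counted at that limit. Fos was 121 in FoxO-deficient and 3019 in wild-type myeloid progenitors (limma adjusted p = 1.35e-06), and 4291 and 4167 in LSK cells. Hmox1, the oxidative stress enzyme haem oxygenase, was 13.9 and 11.8 in myeloid progenitors and was not called (adjusted p = 0.88). These levels were near background, with 2 of 3 arrays above it in each of the 2 groups. The part of the immediate-early change in the heat shock change was not tested.

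Marker genes of the sort were compared as well. Kit was 406 in FoxO-deficient and 352 in wild-type myeloid progenitors, and Mpo, the myeloid enzyme myeloperoxidase, was 4712 and 4289. The summed level of 4 measured of 6 LSK markers was 487 to 548 in FoxO-deficient and 491 to 529 in wild-type myeloid progenitors, below the 930 to 1197 of the LSK arrays, and Tek was called lower without FoxO (limma adjusted p = 0.0085). The summed level of 5 measured of 6 myeloid progenitor markers was 13920 to 14720 against 11940 to 12650 in wild type, with 0 of 5 called. Of these 5, Gata1 alone had a log2 change below 0. It was 405 in FoxO-deficient and 722 in wild-type myeloid progenitors, without overlap (-0.83 ± 0.52, limma adjusted p = 0.59). The sum of 7 of 8 late neutrophil markers was 6274 to 6567 against 4451 to 4583, with 1 (Camp) called higher. The sum of 5 of 5 eosinophil, basophil and mast cell markers was 638 to 677 against 363 to 418, that of 3 of 5 mature B cell markers 181 to 198 against 101 to 128, and that of 3 of 5 T and NK cell markers 2279 to 2621 against 1679 to 1756, with none called. Cd3e and Cd3g were not above background in the FoxO-deficient group. The sum of 4 of 5 monocyte and macrophage markers was 198 to 257 against 268 to 364. The sum of 4 of 4 megakaryocyte markers was 236 to 287 against 348 to 381, and that of 2 of 6 erythroid markers 34.6 to 53.5 against 61.7 to 83.1, with none called. The Sca-1 gene Ly6a was not among the tested genes, so that gate was not checked. The part of these differences in the heat shock change was not tested.

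Likeness to the main members was measured as the root mean square difference of mean-centred log2 values over the 12 arrays. The genes most like Hspa1b were Cd14 (0.316), Tent5c (0.333), Nfkbia (0.346), Zfand5 (0.409) and H1f2 (0.421). They were chosen for a profile like that of Hspa1b, so their low level in FoxO-deficient myeloid progenitors follows from the choice and is only described. Zfand5 averaged 486 in FoxO-deficient and 2871 in wild-type myeloid progenitors. Nfkbia, the inhibitor of NF-kappa-B, averaged 965 and 3835 in the same groups. The genes most like Hspa8 were Chtop (0.0568), Hnrnpa2b1 (0.0678), Ywhae (0.0826), Cntd1 (0.0843) and Acly (0.0855).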

How the data were processed

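RNA of sorted mouse bone marrow cells was amplified and hybridised in 4 groups of 3 arrays, per the labels' protocols. The deposited value table holds an intensity per probe set, a linear summary of its probes; the software, background step and genome build behind it are not given in the sources used here. The intensities deposited by the authors differed in mean (118.9 to 190.2) and median (8 to 13.5) between arrays. For this work 0.6 was added (the 10th percentile), log2 was taken of the deposited intensity, and arrays were quantile normalized; levels are the antilog. Probe sets above the 40th percentile of their array on at least 3 arrays were kept (31779). Of all probe sets, 34945 had 1 gene symbol, 932 several and 9160 none; symbols were updated through a RefSeq table (34741 matched), and probe sets with several were not used. The brightest kept probe set stood for each of 13732 genes. limma 3.58.1 in R 4.3.3 was fitted to all 12 arrays with a mean per group (8 residual degrees of freedom), tested on simulated data, and p-values were adjusted over all genes, or over all kept probe sets for results on single probe sets. A level was above background where it exceeded the limit of 27 background control probe sets on its array (5.14 to 13.0). The number of arrays limits the precision. No 2 arrays shared more than 1.55% of their values.

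The members and gene lists were chosen with earlier results of these data known. Other chaperone genes were named where a FoxO comparison called them, and otherwise taken from the brightest of each list; the 5 genes nearest to Hspa1b and Hspa8 were named by likeness. Alternatives were another scaling, offset, filter, probe set rule, fit or array weighting and leaving out each array; values for the chaperone lists and single probe sets without wild-type LSK array 2 were added after seeing the data.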

Additional observations from a re-analysis of the deposited data

Results flagged for a closer look

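The change of Hspa1b with FoxO loss differed between the cell types in a direct test of the difference. It fell by 2.85 in myeloid progenitors and the log2 change was -0.44 in LSK cells, a difference of -2.41 ± 0.23 (limma adjusted p = 9.12e-04). In each cell type the 3 FoxO-deficient arrays lay below the 3 wild-type ones.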

How the results depend on the processing

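Hspa1b and Dnajb1 were called lower in FoxO-deficient myeloid progenitors in all 21 alternatives. The count of members called there was 2 or 3, and in LSK cells it was 0, in every alternative. The difference between the FoxO effects called 1 member, and 2 with offset 16, offset 32, the 60th percentile filter, the mean of probe sets or array weights. The wild-type comparison of cell types called 2 members, 4 with offset 32 or the mean of probe sets, 5 with array weights and 1 with only these groups. FoxO-deficient myeloid progenitors against FoxO-deficient LSK cells called 3, 5 with the mean of probe sets or only these groups and 6 with array weights. Leaving out 1 array gave 2 to 3 for myeloid progenitors, 0 to 0 for LSK cells, 1 to 2 for the difference, 1 to 5 for wild type and 3 to 6 for FoxO-deficient cells; the highest counts of the last 3 came without wild-type LSK array 2. The cause was not tested.

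Changes of sign were all in uncalled log2 values. With median scaling the LSK change was -0.042 for Hsp90aa1, -0.12 for Hspa8 and -0.029 for Hspe1, the Hspa8 difference between the FoxO effects was 6e-04, and the wild-type cell type difference of Dnajb1 was 0.0099. The Hspa8 LSK change was -0.11 with the mean of probe sets. Leaving out 1 array, the LSK change was -0.026 to 0.13 for Hsp90aa1, -0.017 to 0.039 for Hspa8 and -0.17 to 0.35 for Hspe1. The difference between the FoxO effects was -0.12 to 0.032 for Hspa8 and -0.41 to 0.099 for Hspe1. The Hspa8 change was -0.12 to 0.036 in myeloid progenitors, and its difference between FoxO-deficient cell types was -0.0031 to 0.14.

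Over all genes, the count called in myeloid progenitors was 253, and 1230 with array weights, 1172 without wild-type LSK array 2, 644 with only those groups, 507 with offset 32, 407 with the 60th percentile filter and 393 with offset 16, and 127 to 167 without any one myeloid progenitor array. In LSK cells it was 37, with 0 (only those groups) to 174 (offset 32) over the alternatives. For the difference it was 118, with 59 (without FoxO-deficient LSK array 6) to 440 (array weights). Between wild-type cell types it was 2942, with 1100 (only those groups) and 4668 (without wild-type LSK array 2). Between FoxO-deficient cell types it was 2695, with 5444 (array weights), 5123 (without wild-type LSK array 2) and 4743 (only those groups). Median scaling moved the median of all genes between cell types to 0.19 in wild type and 0.31 in FoxO-deficient cells, against 0.02 and 0.11. No paired analysis was possible because no array number is shared between groups. Hspa1a and 1 Hspa1b probe set were near background in FoxO-deficient myeloid progenitors, which limits the size of their change.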

Other observations

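Other chaperones differed between the cell types. Of the 98 measured, 22 were called higher and 7 lower in wild-type myeloid progenitors than in wild-type LSK cells (9.95% and 11.5% of all genes), and 38 and 11 without wild-type LSK array 2 (17.9% and 16.1% of all genes). The HSP90 co-chaperones held 6 of 10 called higher and the mitochondrial list 5 of 13 higher and 1 lower. TRiC and prefoldin held 4 of 14 higher and the endoplasmic reticulum list 4 of 13. The list headed small heat shock proteins held 3 of 7 lower, namely Hspb8, Hspb11 and Serpinh1. Hspb8 and Serpinh1 were above background on 0 of 3 wild-type myeloid progenitor arrays. Chordc1, which binds HSP90, read 1422, 1304 and 1343 in wild-type myeloid progenitors, against 1010, 1106 and 918 in wild-type LSK cells, and these did not overlap. Dnaja3, a mitochondrial HSP40, read 1500, 1619 and 1726 against 988, 1166 and 1028, also without overlap. Hspa4 read 1759, 1474 and 1495 in wild-type myeloid progenitors, against 2211, 2164 and 2339 in wild-type LSK cells, the other way round. The log2 differences were 0.43 ± 0.13 for Chordc1, 0.61 ± 0.14 for Dnaja3 and -0.51 ± 0.13 for Hspa4. Without wild-type LSK array 2 they were 0.49 ± 0.09, 0.68 ± 0.10 and -0.53 ± 0.10.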
